A study of Homo sapiens with 9 samples.

Results

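The genes described here are 46 genes of the G2 phase and of mitosis, from the proliferation marker MKI67 and the mitotic cyclin CCNB1 to spindle, kinetochore, cytokinesis and condensin genes. They were chosen by symbol from a list that was drawn up with earlier results of these data known. All 46 were found among the 21170 features of the count table, and all 46 passed the filter on low counts that kept 13713 genes for testing. The RNA came from HaCaT, a human epidermal keratinocyte line that became immortal spontaneously in culture. Poly(A) RNA was sequenced in 9 libraries of 3 groups. The mut-FTO group overexpressed a mutant FTO whose demethylase activity is disrupted (3 libraries), the FTO group overexpressed wild-type FTO (3 libraries), and the Vector group carried an empty vector (3 libraries). The labels name no further treatment or time shared by the groups. The study's title ties FTO to psoriasis-like dermatitis and to the matrix gene FN1. The labels state neither the promoter of the constructs nor whether each group is 1 clone or a pool, and they do not say whether the replicates are independent cultures, so the p-values measure only the spread between these libraries.

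FTO demethylates adenosine in RNA. Genes of the G2 phase and mitosis are switched on late in the cell cycle. Their promoters are held off in resting cells by the DREAM complex and driven in cycling cells by the MMB complex with FOXM1, which act at a short element called the cell cycle genes homology region (CHR), together with the factor NF-Y at CCAAT boxes. CDK1 with its cyclins then starts mitosis, Aurora and polo kinases build the spindle, the checkpoint holds anaphase until all kinetochores are attached, and the anaphase-promoting complex destroys securin and cyclin B. In skin the dividing keratinocytes lie in the basal layer, and epidermal hyperproliferation is a hallmark of psoriasis.

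The promoters of 4 genes of mitotic entry are printed because the shared promoter elements are what this gene group is known for. Each run is the 250 bases before the RefSeq start site (GRCh38.p14, plus strand), in lower case with CHR letters (TTTGAA or TTCGAA) and CCAAT boxes in capitals. CCNB1 lies at chr5:69166900-69167149, CDK1 at chr10:60778081-60778330, CCNB2 at chr15:59104896-59105145 and PLK1 at chr16:23678639-23678888.
CCNB1: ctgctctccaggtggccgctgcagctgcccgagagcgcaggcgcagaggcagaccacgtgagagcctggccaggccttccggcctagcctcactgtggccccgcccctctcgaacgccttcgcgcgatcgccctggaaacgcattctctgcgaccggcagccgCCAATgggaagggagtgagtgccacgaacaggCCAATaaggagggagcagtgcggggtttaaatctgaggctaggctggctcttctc
CDK1: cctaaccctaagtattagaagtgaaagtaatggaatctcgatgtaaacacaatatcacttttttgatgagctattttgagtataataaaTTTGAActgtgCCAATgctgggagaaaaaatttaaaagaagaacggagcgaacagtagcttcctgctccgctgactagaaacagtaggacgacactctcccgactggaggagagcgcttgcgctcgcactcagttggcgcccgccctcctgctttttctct
CCNB2: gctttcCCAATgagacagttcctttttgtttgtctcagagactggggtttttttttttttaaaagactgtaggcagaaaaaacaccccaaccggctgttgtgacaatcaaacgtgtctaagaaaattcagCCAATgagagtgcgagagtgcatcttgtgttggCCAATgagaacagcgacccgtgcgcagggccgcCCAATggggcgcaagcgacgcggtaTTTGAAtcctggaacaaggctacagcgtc
PLK1: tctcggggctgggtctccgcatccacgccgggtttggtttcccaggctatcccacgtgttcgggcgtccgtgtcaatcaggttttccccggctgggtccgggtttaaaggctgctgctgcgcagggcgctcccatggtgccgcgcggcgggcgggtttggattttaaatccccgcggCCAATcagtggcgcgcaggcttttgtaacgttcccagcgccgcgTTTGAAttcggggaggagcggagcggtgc

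In CCNB2 and PLK1 the TTTGAA letters begin at position -29 from the start site. CCNB2 carries 4 CCAAT boxes, at -244, -120, -87 and -54, and PLK1 carries 1, at -73. CDK1 has TTTGAA at -161 and CCAAT at -150. CCNB1 has CCAAT boxes at -87 and -55 and neither spelling of the CHR searched here. The RefSeq promoter table (300 bases, 250 before and 50 from the start) held 39 of the 46 genes. On either strand, 29 of the 39 promoters (74.4%) had TTTGAA or TTCGAA, against 16.6% of all 27305 promoters in the table. CCAAT stood in 28 of the 39 (71.8%), against 35.7% of all promoters, and both elements stood together in 22 (56.4%), against 6.58%. A promoter with both CHR spellings was counted once, CHR and CCAAT matches may share a base, and a match is a description of the sequence only.

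FTO itself had 49.7, 82.7 and 64.3 CPM in mut-FTO, 69.6, 77.1 and 62.6 CPM in FTO and 18.4, 17.0 and 25.8 CPM in Vector, so both construct groups lay above every Vector library. CPM is the usual depth-scaled count, taken here over library sizes scaled by TMM factors. Libraries held 32222203 to 37846027 counts. Vector replicate 3 stood apart from the other libraries of its group. Of its counts 14.97% were mitochondrially encoded, against 4.16% and 4.2% in Vector replicates 1 and 2. This share was 5.52%, 7.45% and 5.77% in mut-FTO and 3.98%, 4.32% and 3.8% in FTO. All 3 mut-FTO libraries thus lay above all 3 FTO libraries and above Vector replicates 1 and 2. Assembled loci without a gene name took 2.5% of counts in Vector replicate 3 and 3.17% in mut-FTO replicate 2, against 0.689% to 0.874% in the other 7. Keratinocyte markers (KRT5, KRT14, TP63, ITGB4, COL17A1, DSG3, SFN, PERP) were all detected, summing to 18111 to 23384 CPM in mut-FTO, 14313 to 14806 CPM in FTO and 12430 to 14913 CPM in Vector.

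The mitosis genes carried the departure of Vector replicate 3. Set against the mean of Vector replicates 1 and 2, 16 of the 46 genes were more than 1.5-fold higher in replicate 3 (34.8%, against 23.1% of all genes tested) and 5 were more than 1.5-fold lower (10.9%, against 23.3%). The median difference was 0.28 on the log2 scale, against 0.0039 over all genes tested. The departure ran in both directions: CENPE was 1.5, NUF2 1.30, KIF11 1.11 and MKI67 1.0 higher on the log2 scale, while BIRC5 stood at -1.34, CENPA at -1.22, AURKB at -1.06, CDC20 at -0.93 and CCNB1 at -0.86. Across the 46 genes this difference followed the GC content of the longest GENCODE transcript, with Pearson's r = -0.67 and Spearman's rho = -0.704, and its log2 length, with r = 0.553 and rho = 0.565. The same relation stood across 12506 genes (GC content, r = -0.608 and rho = -0.647, length, r = 0.341 and rho = 0.364). These are descriptions across genes of the same 3 libraries, and genes are not independent replicates. In the 23 GC-poorer mitosis genes (35.3% to 42.6% GC) the median difference was 0.80 with 20 above 0, and in the 23 GC-richer ones (43.1% to 59.6%) it was -0.13 with 7 above 0. Against Vector, the counts of the 46 genes called and of those below 0 are given below also without Vector replicate 3. Counts of non-overlap, and counts at an unadjusted p in mut-FTO against Vector, are given with all libraries only. In mut-FTO against Vector the values of mitosis genes whose call or sign changed without Vector replicate 3 are given too. In mut-FTO against Vector the sign turned for 8 of the 46 genes (CDC20, CENPE, NDC80, KIF11, HMMR, ANLN, ECT2 and SMC4), and in FTO against Vector for 14.

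**Figure D1:**
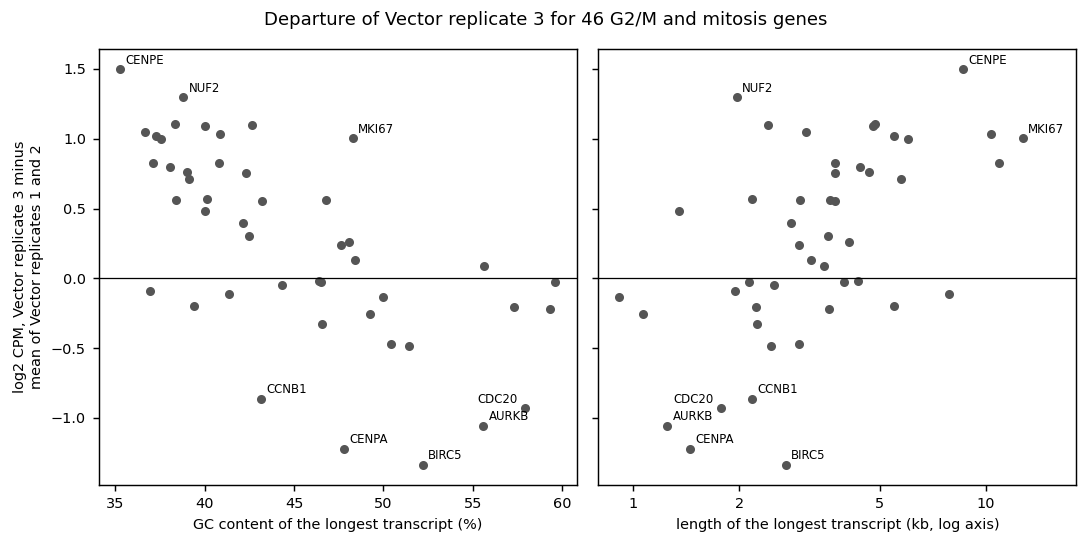
Departure of Vector replicate 3 for the 46 genes, as log2 CPM in replicate 3 minus the mean of Vector replicates 1 and 2, against the GC content (left, %) and the length (right, kb, log axis) of the longest transcript; each point is a gene. GC-poor and long transcripts such as CENPE (1.5) lay high and GC-richer, shorter ones such as AURKB (-1.06) lay low.

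Per kilobase of the longest transcript, the phosphatase CDC25B was the most abundant of the 46 in every group, at 218 CPM per kb in mut-FTO, 139.9 in FTO and 167 in Vector. The ubiquitin-conjugating enzyme UBE2C came next in Vector, at 67.9 CPM per kb in mut-FTO, 86.2 in FTO and 94.5 in Vector. The kinetochore motor CENPE was the lowest, at 0.30 CPM per kb in mut-FTO, 0.23 in FTO and 0.40 in Vector. Between the extremes, CDC20 had 62.7, CCNB1 47.9 and PTTG1 43.9 CPM per kb in Vector, and MKI67, whose transcript is the longest of the 46, had 4.86. The summed CPM of all 46 genes was 2103, 2379 and 2250 in mut-FTO, 2128, 2130 and 2102 in FTO and 2364, 2284 and 2394 in Vector. To these sums CDC25B alone gave 636, 923 and 798 CPM in mut-FTO, 498, 531 and 481 CPM in FTO and 627, 636 and 541 CPM in Vector. FTO libraries resembled each other most. The median SD of a mitosis gene within a group was 0.27 in mut-FTO, 0.087 in FTO and 0.33 in Vector on the log2 CPM scale. Over all genes tested the order was the same, at 0.23 in mut-FTO, 0.14 in FTO and 0.37 in Vector.

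The first comparison, mut-FTO against Vector, asks what the demethylase-disrupted protein does relative to the empty vector. In mut-FTO, 4 mitosis genes fell and 1 rose at an adjusted p below 0.05 (edgeR's quasi-likelihood test, Benjamini-Hochberg over the 13713 genes tested). The genes that fell were CCNA2 (cyclin A2), PRC1 and KIF23 (both of the central spindle) and BUB1B (the checkpoint kinase-like protein BUBR1). The gene that rose was PTTG1, which encodes securin, the inhibitor of separase. The 4 lower calls are 8.7% of the 46 genes, against a background of 4.51% of all genes called lower, and the 1 higher call is 2.17%, against 3.27%. Log2 fold changes were below 0 for 39 of 46 genes (84.8%, against 50.1% of all genes), with a median of -0.33, against -0.0012 over all genes. At an unadjusted p below 0.05, 10 genes were lower (21.7%, against 11% of all genes) and 2 higher (4.35%, against 10.1%). All 3 mut-FTO libraries lay below all 3 Vector libraries for 12 genes (26.1%, against 11.8% of all genes) and above them for 1 (2.17%, against 12.2%). In bulk RNA, fewer cells in G2 and mitosis and less RNA of these genes per cell cannot be told apart.

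Without Vector replicate 3 the same comparison called 11 genes lower (23.9%, against 8.41% of all genes) and 2 higher (4.35%, against 6.56%), while the median moved to -0.20, with 33 genes below 0 (71.7%, against 47.3% of all genes). The 5 genes called with all libraries were called here too. CCNB1, CCNB2, AURKA, AURKB, BIRC5, UBE2C and NCAPH joined the lower ones and SMC2 the higher one. The number of lower calls changed with single libraries left out, among the mitosis genes (4 with all libraries) and over all genes (618). There were 0 without mut-FTO replicate 2 (405 over all genes) or 3 (362), and 1 without mut-FTO replicate 1 (413). Without FTO replicate 1, 2 or 3 there was 1 each time (477, 475 and 494 over all genes). There were 2 without Vector replicate 2 (434) and 5 without Vector replicate 1 (679). A fit of the 6 libraries compared called 0 mitosis genes in either direction (376 lower and 245 higher over all genes). PTTG1 was not called without mut-FTO replicate 2 or Vector replicate 2, and CCNA2 was not called without mut-FTO replicate 2 or 3. Of the 9 fits with 1 library left out, PTTG1 and CCNA2 were thus called in 7 each. KIF23 was called in only 3 of the 9, and PRC1 and BUB1B in only 2 each.

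**Figure D2:**
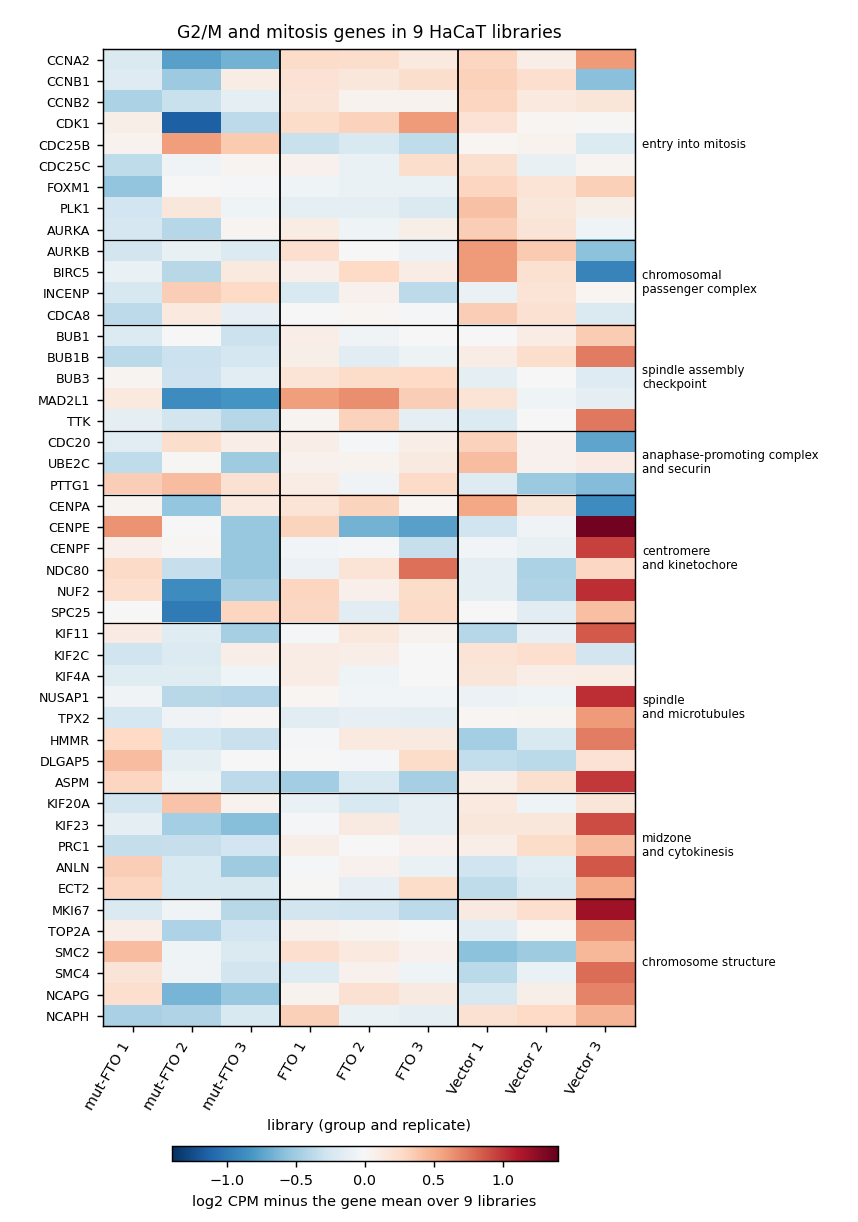
Log2 CPM of the 46 genes in each library minus the gene's mean over the 9 libraries, with genes in rows ordered by role and libraries in columns (mut-FTO, FTO, Vector). Vector replicate 3 departs most within its group, high for MKI67 and CENPE and low for BIRC5 and CENPA, and CCNA2 is low in all 3 mut-FTO libraries.

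Among the 9 genes of mitotic entry, CCNA2 fell in mut-FTO. CCNA2 had 18.2, 12.4 and 13.3 CPM in mut-FTO, 25.0, 24.8 and 23.1 CPM in FTO and 25.7, 22.3 and 31.6 CPM in Vector. All 3 mut-FTO libraries were lower than every other library. Against Vector the log2 fold change was -0.86 (SE 0.20, adjusted p = 0.0194), that is 1.82-fold lower, and -0.72 without Vector replicate 3 (adjusted p = 0.0088).

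CCNB1, the cyclin that partners CDK1 at the onset of mitosis, had 89.1, 70.5 and 107.8 CPM in mut-FTO, 115.8, 112.5 and 119.5 CPM in FTO and 126.3, 118.4 and 67.2 CPM in Vector. The lowest value of all was in Vector replicate 3, and mut-FTO and Vector overlapped only through that library. In mut-FTO against Vector it stood at -0.22 (SE 0.23, adjusted p = 0.63) with all libraries and -0.47 (SE 0.15, adjusted p = 0.041) without Vector replicate 3. CCNB2, the other B-type cyclin here, was lower in every mut-FTO library, at 34.1 to 42.6 CPM in mut-FTO against 51.2 to 57.4 CPM in Vector, and stood at -0.50 (adjusted p = 0.0691), or -0.52 (adjusted p = 0.0122) without Vector replicate 3.

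CDK1, the kinase itself, had 17.6, 7.54 and 12.9 CPM in mut-FTO, 19.8, 20.7 and 25.2 CPM in FTO and 19.1, 16.9 and 16.9 CPM in Vector. Its mut-FTO libraries differed more than 2-fold among themselves and the first overlapped Vector. The log2 fold change against Vector was -0.47 (SE 0.26, adjusted p = 0.33), and -0.51 (adjusted p = 0.23) without Vector replicate 3. CDC25B, which removes the inhibitory phosphates from CDK1, was the only entry gene above 0 against Vector, at 0.38 (adjusted p = 0.21), or 0.30 (adjusted p = 0.16) without Vector replicate 3. The remaining entry genes did not pass with all libraries: FOXM1, the transcription factor of this program, stood at -0.45, the Aurora kinase AURKA at -0.35, the polo kinase PLK1 at -0.27 and the phosphatase CDC25C at -0.17. These values without Vector replicate 3 were -0.43, -0.47 (adjusted p = 0.0316), -0.34 and -0.19, and the median of the 9 entry genes was -0.47, against -0.35 with all libraries.

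The chromosomal passenger complex, which corrects wrong attachments and works in cytokinesis, has 4 genes here and none passed with all libraries. Its kinase AURKB had 29.2, 32.6 and 30.7 CPM in mut-FTO, 41.1, 35.0 and 33.0 CPM in FTO and 52.8, 44.8 and 23.3 CPM in Vector. Vector replicate 3 was below every other library and the other 2 Vector libraries above every other library. The log2 fold change was -0.39 (SE 0.25, adjusted p = 0.41), and -0.67 (SE 0.14, adjusted p = 0.00337) without Vector replicate 3. Survivin, encoded by BIRC5, moved likewise, at -0.19 (adjusted p = 0.77) with all libraries and -0.53 (adjusted p = 0.0376) without Vector replicate 3. CDCA8 (borealin) stood at -0.23, or -0.39 without that library, and INCENP, the scaffold, at 0.11, or 0.086.

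Of the 5 spindle checkpoint genes, BUB1B fell in mut-FTO. It had 12.3, 13.0 and 13.5 CPM in mut-FTO, 16.9, 14.4 and 15.2 CPM in FTO and 17.2, 19.0 and 26.5 CPM in Vector. All mut-FTO libraries lay below all FTO and all Vector libraries. BUB1B stood at -0.69 (SE 0.20, adjusted p = 0.0498), close to the threshold, and at -0.49 (adjusted p = 0.0366) without Vector replicate 3. The overlapping read-through locus BUB1B-PAK6 had 0 to 5 counts per library, against 382 to 941 for BUB1B. MAD2L1, which encodes the checkpoint protein MAD2, had 8.0, 3.94 and 4.04 CPM in mut-FTO, 10.9, 11.4 and 9.21 CPM in FTO and 8.27, 6.96 and 6.6 CPM in Vector. The first mut-FTO library overlapped Vector, and the log2 fold change was -0.45 (SE 0.28, adjusted p = 0.39), or -0.52 without Vector replicate 3. The kinases TTK and BUB1 stood at -0.50 and -0.32, and BUB3 at -0.02. TTK moved to -0.17, BUB1 to -0.22 and BUB3 to -0.07 without that library.

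Among 3 genes of the anaphase-promoting complex and securin, PTTG1 rose in mut-FTO. It had 79.7, 84.8 and 72.8 CPM in mut-FTO, 67.6, 60.8 and 75.9 CPM in FTO and 55.6, 44.1 and 41.4 CPM in Vector. Every mut-FTO and every FTO library was above every Vector library. The log2 fold change of mut-FTO against Vector was 0.75 (SE 0.17, adjusted p = 0.0143), that is 1.68-fold higher, and 0.66 (adjusted p = 0.0044) without Vector replicate 3. PTTG1 has near-identical copies; its copy PTTG2 had 0 to 2 counts per library, against 1467 to 2950 for PTTG1, and how reads were shared among copies is not given in the sources used here. CDC20, the activator of the anaphase-promoting complex, stood at 0.12 (adjusted p = 0.81), or -0.14 (adjusted p = 0.56) without Vector replicate 3, and UBE2C, which starts ubiquitin chains for it, at -0.48 (adjusted p = 0.12), or -0.53 (adjusted p = 0.0251) without Vector replicate 3.

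The 6 centromere and kinetochore genes were all below 0 with all libraries and none passed; without Vector replicate 3, 4 were below 0, none passed and their median was -0.04, against -0.33. CENPF, a kinetochore protein of late G2 and the gene of lowest p among them, had 13.7, 13.2 and 8.99 CPM in mut-FTO, 12.7, 12.9 and 10.4 CPM in FTO and 12.7, 12.1 and 25.4 CPM in Vector. Vector replicate 3 was the highest of the 9, and the log2 fold change of -0.49 (adjusted p = 0.36) was -0.06 without it. CENPE had 3.68, 2.38 and 1.65 CPM in mut-FTO, 2.95, 1.5 and 1.4 CPM in FTO and 1.96, 2.29 and 6.09 CPM in Vector. Its log2 fold change was -0.42 with all libraries and 0.27 without Vector replicate 3, so that 1 library set its sign. NUF2, SPC25 and NDC80 of the NDC80 complex stood at -0.59, -0.24 and -0.09, and CENPA, the histone variant of the centromere, at -0.15. These 4 stood, without Vector replicate 3, at -0.02, -0.07, 0.12 and -0.46, so that NUF2 and SPC25 came near 0, NDC80 changed sign and CENPA moved down.

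Among 8 genes of the spindle and its microtubules none passed, with 7 below 0, a median of -0.29 and, without Vector replicate 3, none passed, 5 below 0 and a median of -0.16. NUSAP1, which bundles spindle microtubules, had 29.4, 23.1 and 22.8 CPM in mut-FTO, 30.9, 29.4 and 29.6 CPM in FTO and 28.6, 29.1 and 61.8 CPM in Vector. Its log2 fold change of -0.67 (SE 0.27, adjusted p = 0.17) was -0.21 without Vector replicate 3, whose value exceeded all others. ASPM, a spindle-pole protein, had 10.1, 7.81 and 6.33 CPM in mut-FTO, 5.84, 7.05 and 5.92 CPM in FTO and 8.71, 9.59 and 16.3 CPM in Vector, and stood at -0.51 (adjusted p = 0.30), or -0.19 without Vector replicate 3. The motors KIF11, KIF4A and KIF2C lay between -0.38 and -0.19, and TPX2, which activates AURKA, at -0.34. HMMR was at -0.17 and DLGAP5, which stabilizes kinetochore fibres, at 0.27. With that library left out KIF11 changed sign to 0.085 and HMMR to 0.27, KIF4A stood at -0.27, KIF2C at -0.34, TPX2 at -0.14 and DLGAP5 at 0.48. The copy KIF4B had 1 to 13 counts per library, against 523 to 805 for KIF4A.

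Among the 5 midzone and cytokinesis genes, PRC1 and KIF23 were called lower in mut-FTO against Vector and the other 3 did not pass. PRC1, the microtubule crosslinker of the midzone, had 58.0, 58.5 and 60.6 CPM in mut-FTO, 77.8, 72.5 and 75.9 CPM in FTO and 77.6, 87.0 and 98.5 CPM in Vector. The 3 mut-FTO values were nearly equal and lay below every FTO and Vector value. Its log2 fold change was -0.57 (SE 0.15, adjusted p = 0.0307) and -0.49 (adjusted p = 0.0076) without Vector replicate 3. KIF23, the motor of the centralspindlin complex, had 23.2, 18.4 and 16.9 CPM in mut-FTO, 25.2, 28.0 and 23.2 CPM in FTO and 28.5, 28.4 and 48.1 CPM in Vector. It was lower in every mut-FTO than in every Vector library, at -0.84 (SE 0.23, adjusted p = 0.0404), or -0.55 (adjusted p = 0.0282) without Vector replicate 3. The furrow protein ANLN stood at -0.32, the RhoA activator ECT2 at -0.06 and the motor KIF20A at 0.0021. ANLN stood at 0.14, ECT2 at 0.25 and KIF20A at 0.036 without Vector replicate 3, and the median of the 5 midzone and cytokinesis genes was then 0.036, against -0.32 with all libraries.

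Of the 6 genes of chromosome structure, none passed with all libraries. MKI67, the coat protein of mitotic chromosomes, had 35.5, 39.3 and 31.2 CPM in mut-FTO, 34.1, 33.6 and 31.5 CPM in FTO and 44.3, 48.0 and 92.5 CPM in Vector. Every library with a construct was below every Vector library, and Vector replicate 3 was far above the rest. In mut-FTO against Vector MKI67 stood at -0.80 (SE 0.25, adjusted p = 0.0729), or -0.40 (SE 0.14, adjusted p = 0.0641) without Vector replicate 3. The condensin subunit NCAPH had 6.73, 6.93 and 7.97 CPM in mut-FTO, 11.7, 8.66 and 8.5 CPM in FTO and 10.7, 11.2 and 12.9 CPM in Vector. All its mut-FTO libraries were below all others, at -0.69 (SE 0.20, adjusted p = 0.0579), and it passed without Vector replicate 3 (-0.61, adjusted p = 0.0426). NCAPG stood at -0.49, TOP2A (topoisomerase II alpha) at -0.39 and the condensin ATPase SMC4 at -0.22. NCAPG moved to -0.20, TOP2A to -0.12 and SMC4 to 0.19 without Vector replicate 3. SMC2, the partner of SMC4, stood at 0.20 (adjusted p = 0.73), and at 0.61 (adjusted p = 0.0398) without Vector replicate 3.

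**Figure D3:**
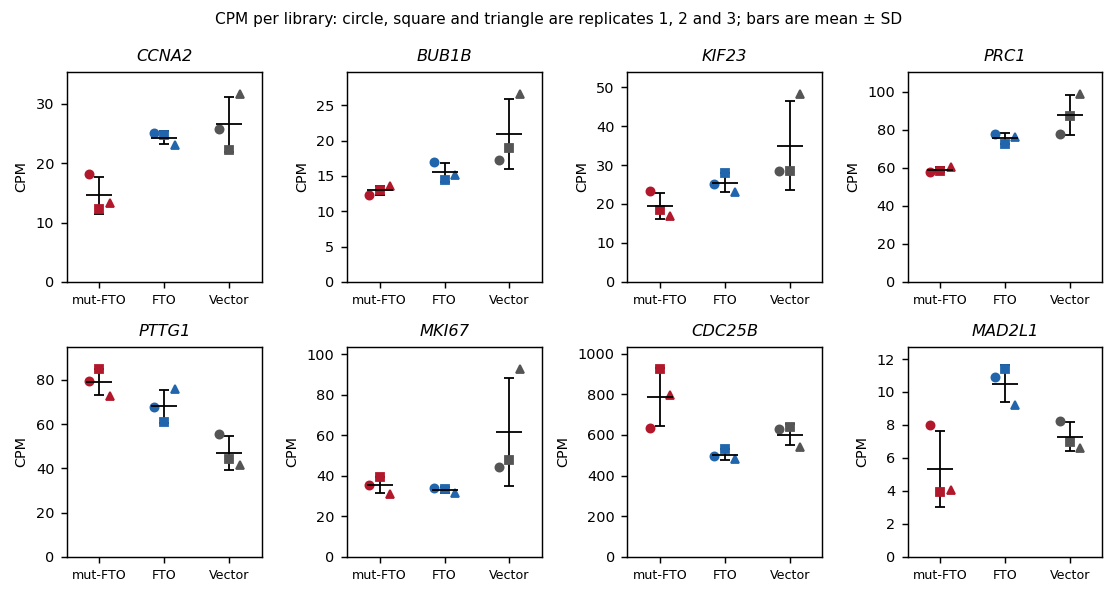
CPM of 8 mitosis genes in each library (points, shaped by replicate number), with the group mean and SD (bars, n = 3); groups are mut-FTO, FTO and Vector. PTTG1 is above Vector in both construct groups, MKI67 below it in both, and CCNA2, PRC1 and MAD2L1 are lower in mut-FTO than in FTO.

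The second comparison, FTO against Vector, asks what the wild-type enzyme does. No mitosis gene passed in either direction, where 0.306% of all genes were called higher and 0.438% lower; limma-voom also called 0 and DESeq2 called 1, MKI67, lower (log2 fold change -0.91, adjusted p = 0.0261). At an unadjusted p below 0.05, 2 genes were higher (4.35%, against 4.94% of all genes) and 5 lower (10.9%, against 6.95%). The median was -0.14, against -0.002 over all genes, with 32 genes below 0 (69.6%, against 50.2%). Leaving out Vector replicate 3 gave a median of -0.12 with 28 genes below 0 (60.9%, against 51.3%) and 0 calls, where 1.15% of all genes were called higher and 2.26% lower; 4 genes were then higher (8.7%, against 8.69%) and 6 lower (13%, against 10.6%) at an unadjusted p below 0.05. Libraries did not overlap for 9 genes on the lower side (19.6%, against 10.9%) and 4 on the higher side (8.7%, against 10.1%). The 3 largest differences were MKI67 at -0.90 (SE 0.25, adjusted p = 0.17), ASPM at -0.88 (SE 0.27, adjusted p = 0.22) and CENPE at -0.82 (SE 0.47, adjusted p = 0.52). All of them shrank without Vector replicate 3, to -0.50 (adjusted p = 0.0546), -0.57 (adjusted p = 0.17) and -0.15 (adjusted p = 0.88). The adjusted p of MKI67 and ASPM thus fell although their differences shrank. The largest difference was then SMC2, at 0.65 (adjusted p = 0.0718), against 0.26 with all libraries. PTTG1 stood at 0.53 (SE 0.17, adjusted p = 0.22), MAD2L1 at 0.53 and BUB3 at 0.35, each with every FTO library above every Vector library.

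Both construct groups were set against the same 3 Vector libraries, so their values are given side by side with no measure of likeness. CCNA2 stood at -0.86 in mut-FTO and -0.13 in FTO, PRC1 at -0.57 and -0.22, KIF23 at -0.84 and -0.46, BUB1B at -0.69 and -0.43, and PTTG1 at 0.75 and 0.53. MKI67 was about as low in both, at -0.80 in mut-FTO and -0.90 in FTO. Without Vector replicate 3, CCNA2 stood at -0.72 in mut-FTO and -0.0068 in FTO, PRC1 at -0.49 and -0.15, and KIF23 at -0.55 and -0.18. BUB1B then stood at -0.49 and -0.25, PTTG1 at 0.66 and 0.43, and MKI67 at -0.40 and -0.50. With all libraries CDK1 and MAD2L1 differed in sign, at -0.47 and -0.45 in mut-FTO and 0.31 and 0.53 in FTO. None of these 4 values was past the threshold.

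**Figure D4:**
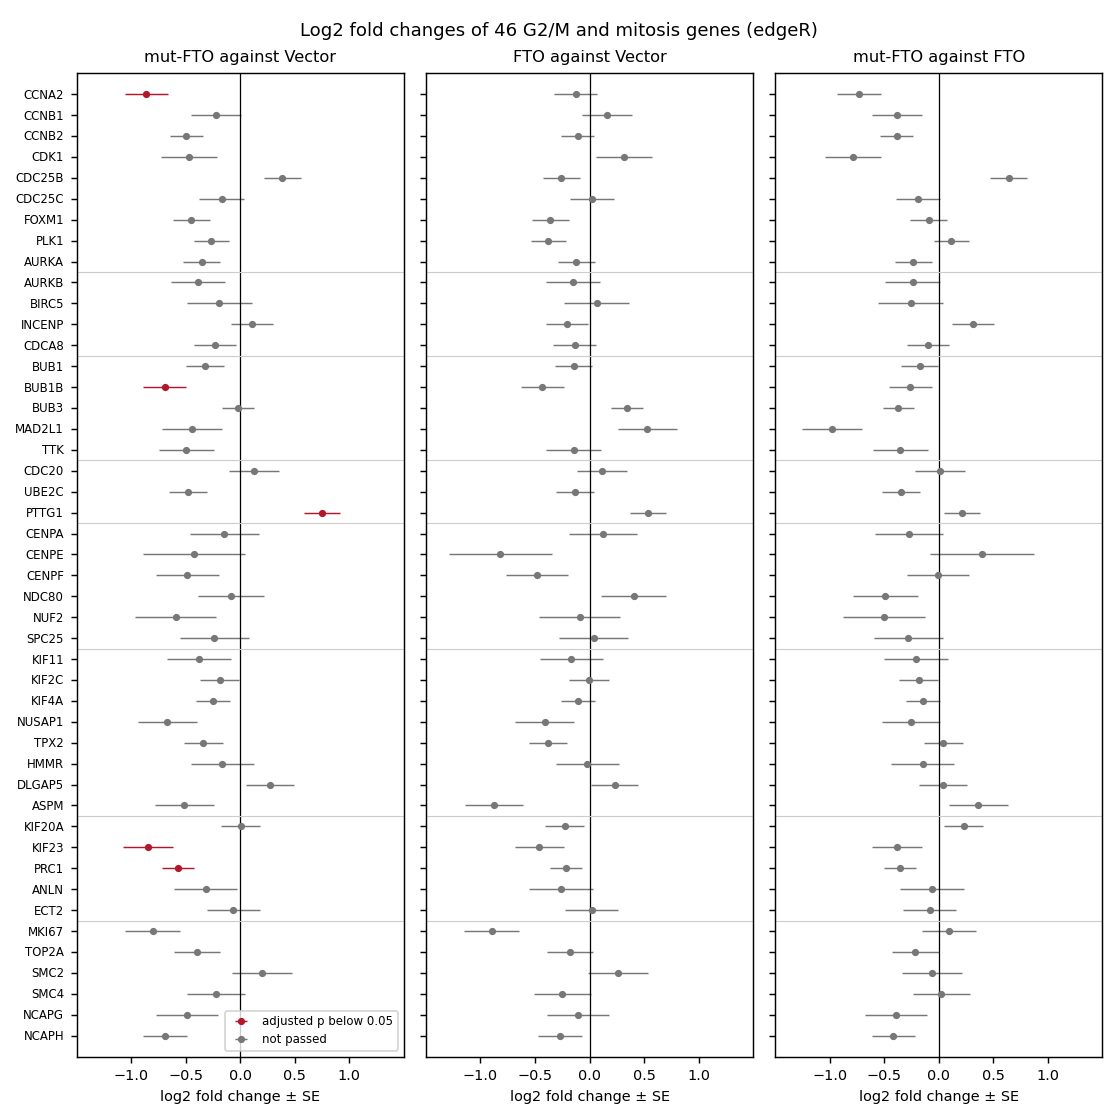
Log2 fold changes (points) with their standard errors (lines) of the 46 genes in mut-FTO against Vector, FTO against Vector and mut-FTO against FTO, from edgeR; genes are ordered by role and red marks an adjusted p below 0.05. The 5 genes called are red in the first panel (PTTG1 at 0.75, CCNA2, KIF23, BUB1B and PRC1 between -0.86 and -0.57) and none in the others.

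The third comparison, mut-FTO against FTO, sets the disrupted enzyme against the intact one and uses no Vector library for the difference itself, although Vector enters the shared estimate of the spread. No gene passed, where 1.13% of all genes were called higher and 1.2% lower, and limma-voom also called 0. At an unadjusted p below 0.05, 1 gene was higher (2.17%, against 7.3% of all genes) and 6 were lower (13%, against 6.69%). The median was -0.20, against -0.0046 over all genes, with 34 genes below 0 (73.9%, against 50.6%). For 13 genes every mut-FTO library was below every FTO library (28.3%, against 14.8% of all genes), and for 1, CDC25B, above (2.17%, against 14.2%).

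MAD2L1 showed the largest difference between the constructs, at -0.98 (SE 0.28, adjusted p = 0.0958), with 3.94 to 8.0 CPM in mut-FTO and 9.21 to 11.4 CPM in FTO. CDK1 stood at -0.79 (SE 0.26, adjusted p = 0.16), CCNA2 at -0.73 (SE 0.20, adjusted p = 0.0843) and CDC25B at 0.64 (SE 0.17, adjusted p = 0.0748). In each of these 4 the libraries of the groups did not overlap. DESeq2, and also a fit of only the 6 libraries compared, called CCNA2 and MAD2L1 lower and CDC25B higher, and leaving out Vector replicate 3 called these 3 and PRC1, which was lower. Without mut-FTO replicate 1, MAD2L1 and CDC25B were called. CCNB1 stood at -0.38 and CCNB2 at -0.39, BUB1B at -0.26, PRC1 at -0.35 and NCAPH at -0.42, each with no overlap. PTTG1 (0.22), MKI67 (0.09) and KIF23 (-0.38) overlapped between the constructs.

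Other genes of the cell cycle were read from the same fit. Of 55 other mitosis genes, 1 fell and 0 rose in mut-FTO against Vector, where 4.51% of all genes were called lower and 3.27% higher: SKA1, of the microtubule-binding Ska complex, with 6.76, 5.40 and 7.48 CPM in mut-FTO, 7.92, 8.58 and 7.52 CPM in FTO and 13.1, 11.6 and 14.7 CPM in Vector (log2 fold change -1.0, SE 0.20, adjusted p = 0.0078, or -0.92 without Vector replicate 3). Their median was -0.28 in mut-FTO against Vector, -0.11 in FTO against Vector and -0.23 in mut-FTO against FTO, and no other of them passed in any comparison with all libraries. Without Vector replicate 3, 9 of the 55 were lower and 0 higher in mut-FTO against Vector, beside 8.41% and 6.56% of all genes, and in FTO against Vector 2 were lower and 1 higher, beside 2.26% and 1.15%. The 17 subunits and regulators of the anaphase-promoting complex gave 0 calls in each comparison, with medians of -0.04, -0.01 and -0.11. Of 17 DREAM, MMB and NF-Y genes, MYBL2, the MYB factor of the MMB complex, fell in mut-FTO, to 21.1, 28.5 and 26.9 CPM, against 43.2, 39.4 and 38.3 CPM in Vector (log2 fold change -0.66, SE 0.18, adjusted p = 0.0397, or -0.71 without Vector replicate 3). FTO libraries had 30.8, 27.9 and 23.3 CPM of MYBL2, which stood at -0.56 against Vector (adjusted p = 0.24), and at -0.62 (adjusted p = 0.041) without Vector replicate 3. With all libraries 1 of the 17 was lower and 0 higher in mut-FTO against Vector, beside 4.51% and 3.27% of all genes. Without Vector replicate 3, 2 of the 17 were lower and 1 higher in that comparison, beside 8.41% and 6.56% of all genes. In FTO against Vector 1 was then lower and 0 higher, beside 2.26% and 1.15%.

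Among 38 genes of G1/S and replication, 6 were lower and 0 higher in mut-FTO against Vector, beside 4.51% and 3.27% of all genes, with a median of -0.27. Without Vector replicate 3, 11 were lower and 0 higher, beside 8.41% and 6.56% of all genes, with a median of -0.37. CCND1, the cyclin that opens G1, had 68.7, 72.9 and 79.9 CPM in mut-FTO, 93.1, 101.6 and 101.8 CPM in FTO and 148.7, 163.9 and 156.8 CPM in Vector (log2 fold change of mut-FTO against Vector -1.08, SE 0.14, adjusted p = 0.00047). The ribonucleotide reductase subunit RRM2 had 8.70, 10.9 and 10.3 CPM in mut-FTO, 15.4, 17.5 and 14.3 CPM in FTO and 22.1, 22.3 and 21.1 CPM in Vector (-1.13, SE 0.17, adjusted p = 0.0015). In both genes the 3 groups did not overlap and FTO lay between mut-FTO and Vector. With all libraries neither comparison with FTO gave a call on this list; without Vector replicate 3, CCND1 was called lower in FTO against Vector (-0.68, adjusted p = 0.003). Against Vector in mut-FTO, CCND1 stood at -1.09 and RRM2 at -1.17 without that library. Of 7 CDK inhibitors tested, CDKN2B, which blocks CDK4 and CDK6, rose in mut-FTO, with 14.5, 16.8 and 19.4 CPM in mut-FTO, 8.98, 6.92 and 7.81 CPM in FTO and 7.36, 8.22 and 8.91 CPM in Vector. Its log2 fold change was 1.05 against Vector (SE 0.20, adjusted p = 0.0054) and 1.10 against FTO (SE 0.20, adjusted p = 0.0119). The other 6 inhibitors did not pass with all libraries. Over all genes 3.27% were called higher and 4.51% lower in mut-FTO against Vector, and 1.13% and 1.2% in mut-FTO against FTO. Without Vector replicate 3, CDKN2B and CDKN3 were called higher and CDKN1A and CDKN2D lower in mut-FTO against Vector, beside 6.56% and 8.41% of all genes.

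**Figure D5:**
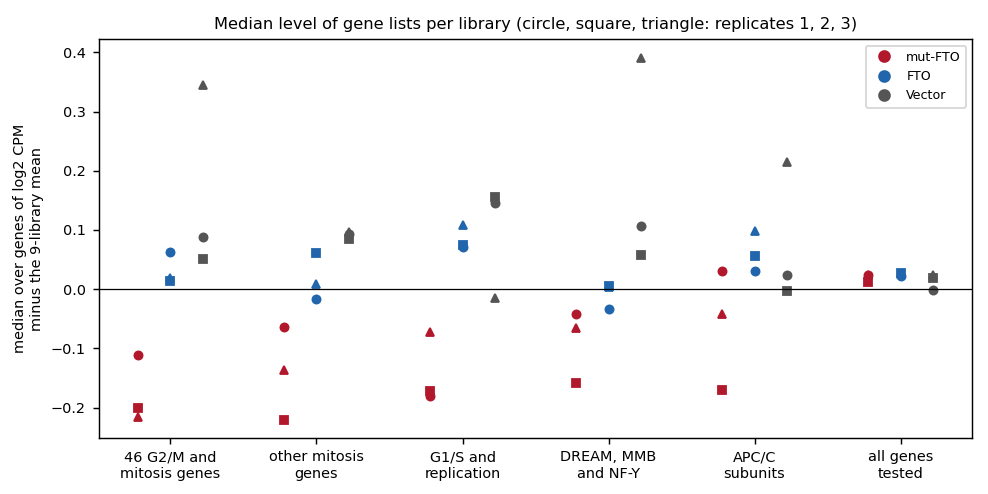
Median over the genes of each list of log2 CPM minus the gene's mean over the 9 libraries (vertical axis), by library; colours mark mut-FTO, FTO and Vector and shapes the replicate numbers. For the 46 mitosis genes the mut-FTO libraries lie at -0.11, -0.20 and -0.22, FTO at 0.06, 0.01 and 0.02, and Vector at 0.09, 0.05 and 0.34, the last being replicate 3.

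Markers of other cell types were summed in each library, and their part in the results was not tested. Fibroblast markers (8 genes, THY1 at 0 counts) summed to 9.73 to 10.8 CPM in mut-FTO, 5.68 to 8.07 CPM in FTO and 9.15 to 10.01 CPM in Vector. Among them the matrix proteoglycan gene DCN was higher than in Vector in both construct groups, with 3.14, 1.56 and 1.76 CPM in mut-FTO, 0.43, 0.72 and 1.20 CPM in FTO and 0, 0.11 and 0 CPM in Vector (adjusted p = 0.0013 for mut-FTO and 0.048 for FTO). Leukocyte markers (10 genes, among them CD4, CD8A and MS4A1 at 0) summed to 69.5 to 109.9 CPM in mut-FTO, 66.5 to 74.4 CPM in FTO and 67.4 to 90.6 CPM in Vector, and of the 4 tested CD14 rose in mut-FTO against Vector (log2 fold change 1.01, SE 0.19, adjusted p = 0.006). The other 3 did not pass: ITGAM stood at 2.91, CD68 at -0.08 and CD3E at -0.76. Melanocyte markers (7 genes, TYR and DCT at 0) reached at most 2.65 CPM in mut-FTO, 2.20 CPM in FTO and 1.49 CPM in Vector, and endothelial ones (7 genes, PECAM1, CLDN5 and EMCN at 0) at most 0.38 CPM in mut-FTO, 1.07 CPM in FTO and 1.73 CPM in Vector. Of the 8 keratinocyte markers, 2 were called higher and 0 lower in mut-FTO against Vector, beside 3.27% and 4.51% of all genes. The basal keratins KRT14 (log2 fold change 0.91, SE 0.18, adjusted p = 0.0088) and KRT5 (0.69, SE 0.19, adjusted p = 0.0468) rose in mut-FTO against Vector. PERP, SFN and DSG3 stood at 0.33, 0.31 and 0.06, and ITGB4, COL17A1 and TP63 at -0.06, -0.42 and -0.50; without Vector replicate 3 COL17A1 was called lower (-0.55, adjusted p = 0.0076). The 13 mitochondrially encoded genes gave 0 calls in each comparison with all libraries. Without Vector replicate 3, 11 of them were called higher in mut-FTO against Vector, beside 6.56% of all genes.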

How the data were processed

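Counts per gene were deposited by the authors as whole numbers, not normalized, and per the submitters' processing notes HISAT2 and StringTie were used. Those notes name mm10, a mouse build, although cells and symbols are human, so no coordinates come from the files. Which program counted, tool versions, strand setting and annotation: not given in the sources used here. Columns were matched to groups by their letters, and only these letters tell FTO from mut-FTO; all value columns were used.

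Tests used edgeR 4.0.16 (R 4.3.3): filterByExpr (minimum count 10, total 15), TMM factors, 1 model of the 9 libraries, robust quasi-likelihood tests, Benjamini-Hochberg adjustment over 13713 genes. SEs come from the fold change and F statistic. Log2 CPM used a prior count of 2. The code was tested on simulated counts. Depth was 32222203 to 37846027 counts per library; CENPE rested on as few as 49 counts.

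Members and lists were chosen with earlier results of these data known. All 46 may be named. Values per library are given for MKI67, CCNB1, the gene of lowest p in each role against Vector in mut-FTO, and the 3 largest changes per comparison, with others by range. Other lists are named by their 2 called genes of lowest p per comparison. List symbols matched directly (187 of 188) or by an older symbol (1). Transcript length and GC content come from the longest protein-coding transcript of GENCODE release 29, promoters from RefSeq.

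Alternatives were RLE factors, library size alone, DESeq2 1.42.0, limma-voom (limma 3.58.1), other filters, the 6 libraries compared, the replicate number as a block, and libraries left out. A GC-content offset (a lowess trend of log2 CPM on GC content per library, 12506 genes) was chosen after seeing the data. Libraries of a group differed by more than sampling noise (chi-square of 13.1 to 468 per gene), so none was treated as the same library deposited again; this does not tell separate cultures from repeat preparations.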

Additional observations from a re-analysis of the deposited data

How the results depend on the processing

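Medians of the mitosis genes stayed below 0 in all 3 comparisons under every alternative run. In mut-FTO against Vector, genes called lower (4) and higher (1) became 7 lower with library size alone and with DESeq2, 0 in both directions with the 6 libraries compared, and 12 lower and 3 higher (median -0.22) without Vector replicate 3 and mut-FTO replicate 2. Calls over all genes moved too: 618 lower and 449 higher became 738 and 354 with library size alone, 972 and 708 with DESeq2, 376 and 245 with the 6 libraries compared, 1337 and 1064 without those 2 libraries, and 1146 and 854 with the GC-content offset. Limma-voom gave 3 lower and 1 higher (582 and 476 over all genes). With no filter on low counts there were also 3 lower and 1 higher (624 and 437 over all genes). BUB1B was called in neither of these fits. Leaving out 1 library gave 0 to 11 lower (362 to 1173 over all genes) and 0 to 2 higher (246 to 916). The medians then ranged from -0.37 to -0.20. The GC-content offset, chosen after seeing the data, gave 9 lower, and 16 lower and 3 higher (1479 and 1203 over all genes) without Vector replicate 3. In FTO against Vector (0 calls; 60 lower and 42 higher over all genes), DESeq2 gave 1 lower (241 over all genes), the GC-content offset 1 lower (166 over all genes) and 2 without Vector replicate 3 (322), and leaving out both Vector replicate 3 and mut-FTO replicate 2 gave 3 lower and 2 higher (583 and 467 over all genes). In mut-FTO against FTO there were 0 calls (164 lower and 155 higher over all genes). DESeq2 (370 and 381) and the 6 libraries compared (568 and 650) gave 2 lower and 1 higher there. Leaving out both Vector replicate 3 and mut-FTO replicate 2 gave 4 lower and 1 higher (644 and 552 over all genes). With 1 library left out there were 0 to 3 lower (46 to 642 over all genes) and 0 to 1 higher (24 to 785). The GC-content offset gave 1 lower and 1 higher there (399 and 334 over all genes), and 5 lower and 1 higher without Vector replicate 3 (1016 and 943).

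Same-numbered libraries showed r from -0.127 to 0.106 between their deviations (9 pairs, 1 over 0.1), and pairs of unlike numbers -0.116 to 0.151. These deviations were taken from the mean of only 3 libraries, and Vector replicate 3 stood apart. The check therefore cannot tell whether the numbers pair the samples, and the labels do not say. With the replicate block, mut-FTO against Vector kept 1 lower (CCNA2, adjusted p = 0.0343) and 1 higher (PTTG1, adjusted p = 0.0329). Over all genes this fit called 476 lower and 337 higher. The other comparisons gave 0, with 35 lower and 32 higher over all genes in FTO against Vector. In mut-FTO against FTO, 117 were lower and 105 higher over all genes. The block with the GC-content offset gave 6 lower and 1 higher in mut-FTO against Vector (902 and 673 over all genes). It gave 1 lower in FTO against Vector (97 over all genes) and 2 lower in mut-FTO against FTO (252).

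Signs turned for some genes that were not called with all libraries. Without Vector replicate 3 they did so for 8 genes in mut-FTO against Vector: CENPE, KIF11 (0.085), ANLN (0.14), ECT2 (0.25), HMMR (0.27), SMC4 (0.19), NDC80 (0.12) and CDC20 (-0.14), and for 14 in FTO against Vector. The following ranges are over fits with 1 library left out, for the genes given by library or called under some alternative. In mut-FTO against Vector, CENPE ranged from -0.78 to 0.27 (0.31 without Vector replicate 3 and mut-FTO replicate 2, 0.048 with the GC-content offset without Vector replicate 3), BIRC5 from -0.53 to 0.15, and SMC2 from -0.013 to 0.61 (0.66 without Vector replicate 3 and mut-FTO replicate 2). In FTO against Vector, CCNB1 ranged from -0.10 to 0.32 and NUSAP1 from -0.60 to 0.030, with -0.092 and 0.039 without Vector replicate 3 and mut-FTO replicate 2, where CCNA2 stood at 0.0027. AURKB ranged from -0.45 to 0.094, and with the GC-content offset without Vector replicate 3 CCNB1 stood at -0.24 and CDK1 at -0.055. In mut-FTO against FTO, MKI67 stood at -0.000931 without Vector replicate 3 and mut-FTO replicate 2 and ranged from 0.017 to 0.18. CENPF ranged from -0.12 to 0.16 (0.034 without FTO replicate 1, 0.046 without FTO replicate 2, 0.00844 without Vector replicate 3), with 0.11 in all 3 fits with the GC-content offset. The cause was not tested.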

Other observations

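Fold changes were also read by promoter letters. The 29 mitosis genes with TTTGAA or TTCGAA had, in mut-FTO against Vector, a median of -0.32 on the log2 scale, and the 10 without had -0.21. Of the 29, 3 were called, all lower (BUB1B, KIF23 and PRC1). Of the 10, 2 were called, CCNA2 lower and PTTG1 higher. Over all genes 4.51% were called lower and 3.27% higher. Without Vector replicate 3 the medians were -0.19 and -0.27. In FTO against Vector both medians were -0.14. These values are descriptions, and no test of their difference was run.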
